A study of Homo sapiens with 4 samples.

Results

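To investigate how the genes that encode histones responded to loss of LDB1, the RNA-seq values of all histone genes were examined in cells labelled NB4, a human acute promyelocytic leukemia line. LDB1 is an adaptor protein that joins LMO2 and other factors in a transcription complex. Members were taken by name: rows of the deposited table whose symbol begins with HIST1H to HIST4H were called cluster histone genes, and rows beginning with H1F, H2AF, H2BF or H3F were called variant histone genes. Names of pseudogenes and 1 antisense RNA were left out. This gave 78 rows of the 28412 in the table, 65 of them cluster genes and 13 of them variant genes under 12 names. There were 4 libraries: 2 from cells with a lentiviral control shRNA vector (sh-NC) and 2 from cells with a lentiviral shRNA vector against LDB1 (sh-LDB1), all selected with puromycin. The labels give the control genotype as control, describe its source as untreated, and do not say which of the shRNAs against LDB1 was sequenced. All 4 libraries came from 1 line, and nothing says that the replicates were separate cultures, so p-values measure only the spread between these samples, which may be technical. Levels are in FPKM, a count of fragments corrected for gene length and for library depth.

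Histones are the proteins around which DNA is wound in the nucleosome: H2A, H2B, H3 and H4 form its core, and H1 binds the linker DNA. The cluster genes supply histones during DNA replication. They lack introns in their classical form, sit in tandem on a few chromosomes, and their mRNAs end in a conserved stem-loop instead of a poly(A) tail. The variant genes are expressed outside S phase as well, and their mRNAs are polyadenylated. Some cluster genes also make longer, polyadenylated transcripts, which cells that leave the cycle are known to use. The TruSeq RNA kit named in the labels selects polyadenylated RNA with oligo-dT beads and does not mark strand, so cluster mRNAs without a tail are read only in part in such libraries.

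The stem-loop was searched first, because it separates both classes by a feature that the names do not use. It was searched in the GRCh38 sequence of the 60 cluster and 13 variant rows found in GENCODE 44. All 60 cluster genes (100%) held the 16-base histone 3′ stem-loop motif within the gene or the 100 bases past it, against 15 of 28101 other genes of the table (0.0534%) and 1 of the 13 variant genes. In 45 of the 60 cluster genes it stood in the last 200 bases or the 100 past the annotated end, and 15 are annotated further, past the stem-loop. The letters of the stem followed the family: it opened with GGCTCT in all 6 H1, 13 H2A, 21 H2B and 8 H3 genes, and with GGCCCT in all 12 H4 genes. The lines below show it for the most abundant gene of each family and for H2AFX, the variant gene that holds one. Capitals mark the 16 bases of the motif, read 5′ to 3′ on the coding strand.
HIST1H1C (chr6:26055744-26055759, minus strand): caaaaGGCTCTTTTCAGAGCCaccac
HIST1H2AC (chr6:26124669-26124684, plus strand): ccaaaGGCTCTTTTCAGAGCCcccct
HIST1H2BK (chr6:27146366-27146381, minus strand): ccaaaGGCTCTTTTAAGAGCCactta
HIST1H3H (chr6:27810516-27810531, plus strand): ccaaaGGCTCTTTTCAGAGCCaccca
HIST1H4I (chr6:27139654-27139669, plus strand): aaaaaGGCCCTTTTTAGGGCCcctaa
H2AFX (chr11:119094898-119094913, minus strand): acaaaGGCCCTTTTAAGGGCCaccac
In HIST1H1C, HIST1H2BK and HIST1H4I the motif ended 4, 5 and 9 bases before the annotated end. In HIST1H2AC, HIST1H3H and H2AFX the annotation runs 14432, 769 and 1024 bases further.

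The promoters were then read for short motifs, in the RefSeq sequence (GRCh38.p14) from 250 bases before to 50 after the start, on both strands. A promoter was found for 53 cluster and 10 variant genes. The octamer ATTTGCAT, the element first described in H2B promoters, was in 10 of 12 H2A and 14 of 18 H2B promoters and in 0 of the H1, H3 and H4 promoters. It was in 1 of the 10 variant promoters, that of H3F3B, and in 1.8% of all 27305 promoters. CCAAT was in 45 of the 53 cluster promoters (84.9%), against 35.7% of all, and TATAAA in 36 (67.9%), against 12% of all. AGATAA or TGATAA, the letters that GATA factors recognise, was in 7 of the 53 cluster promoters (13.2%) and in 0 of the 10 variant promoters, against 16.6% of all. The lines below show a pair of H2B promoters whose genes moved in opposite directions. Capitals mark ATTTGCAT, CCAAT and TATAAA on either strand, and some of these overlap.
HIST1H2BK (chr6:27146809-27147108, minus strand): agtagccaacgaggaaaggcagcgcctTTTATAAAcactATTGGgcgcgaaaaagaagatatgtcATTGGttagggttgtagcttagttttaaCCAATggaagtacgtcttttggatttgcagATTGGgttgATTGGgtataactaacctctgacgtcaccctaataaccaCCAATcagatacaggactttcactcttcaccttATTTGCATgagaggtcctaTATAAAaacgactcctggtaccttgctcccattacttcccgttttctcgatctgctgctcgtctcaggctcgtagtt
HIST1H2BD (chr6:26157871-26158170, plus strand): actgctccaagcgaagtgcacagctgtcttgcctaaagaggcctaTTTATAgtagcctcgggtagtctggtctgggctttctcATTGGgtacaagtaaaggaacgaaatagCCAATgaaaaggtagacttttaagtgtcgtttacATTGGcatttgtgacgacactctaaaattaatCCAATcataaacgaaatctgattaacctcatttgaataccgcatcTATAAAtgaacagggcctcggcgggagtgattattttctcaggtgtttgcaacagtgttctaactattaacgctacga
The HIST1H2BK promoter holds the octamer and the HIST1H2BD promoter does not. Other H2B genes ran against that order: HIST1H2BE, which rose (1.11 on the log2 scale), holds it, and HIST1H2BN, which fell (-0.36), does not.

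Before the results, the libraries were examined. Between 14967943 and 17383958 reads per library were recovered from the FPKM, and LDB1 was at 135.1 and 120.1 FPKM with sh-NC and 10.2 and 9.47 FPKM with sh-LDB1. The label was checked against markers. Of 9 promyelocytic and granulocytic markers, 7 were in the table, and they summed to 12.7 and 11.7 FPKM with sh-NC and 41.4 and 37.9 FPKM with sh-LDB1, with ELANE (neutrophil elastase) at 0 in 3 libraries. The 12 erythroid markers summed to 4071 and 4233 FPKM with sh-NC and to 446.5 and 409.8 FPKM with sh-LDB1, and HBZ, the embryonic zeta globin, alone stood at 1543 and 1600 FPKM with sh-NC. The markers thus go against the promyelocytic label, and the libraries are called by their vectors here. The summed erythroid markers fell, as did the summed histone levels below, while single cluster histone genes moved in both directions. The part of the markers in those values was not tested. In bulk RNA, fewer cells of a type and less RNA per cell cannot be told apart.

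The cluster genes moved in both directions after LDB1 knockdown. Levels were compared as log2(FPKM + 1) with limma and Benjamini-Hochberg adjustment over the 13300 genes whose mean reached 1 FPKM, of which 46 were cluster genes. A gene was said to rise or fall at an adjusted p below 0.05, and to be past the threshold where the change was also over 2-fold. Of the 46 cluster genes, 5 fell past the threshold, against 10.3% of all genes tested, and 3 rose past it, against 9.5% of all. By adjusted p alone, 14 fell and 12 rose, against 37.4% and 29.9% of all. The groups did not overlap, lower in sh-LDB1, in 21 of the 46 (46.3% of all genes), and higher in 16 (38.3% of all). Those shares are close to the background. The median log2 fold change of the 46 was -0.12, against -0.078 for all genes tested, and it turned to 0.047 when each library was scaled to the same summed FPKM. That scaling also moved the median of all genes to 0.067 and the share of lower genes among all calls from 52% to 37.9%. It left 0 of the 5 falling genes past the threshold, while 13 still fell by adjusted p alone.

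The counts differed with level. Of the 27 cluster genes whose mean reached 5 FPKM, 13 fell and 3 rose, against 46.4% and 32.3% of the 7506 genes tested at that level, and 5 fell and 0 rose past the threshold, against 13.1% and 9.45%. Their median log2 fold change was -0.36 (-0.21 with equal summed FPKM), against -0.15 for those 7506 genes. Of the 19 with a mean of 1 to 5 FPKM, 1 fell and 9 rose, against 25.8% and 27% of the 5794 genes at that level, and 0 fell and 3 rose past the threshold, against 6.66% and 9.58%. Whether the histone genes differ from other genes of their level was not tested. The count of rises among these scarce genes was 5 or 6 with any 1 library left out, and among all 46 it was 7 without either sh-LDB1 library and 8 or 9 without either sh-NC library. In 3 cluster genes (HIST3H3, HIST1H2AB and HIST2H4B) the sh-NC mean was under 1 FPKM, and in 2 (HIST1H2BH and HIST2H2AA4) the sh-LDB1 mean was, so these passed the filter through the group where they are high, and their values are a description only. HIST3H3 is 1 of the 3 genes counted as rising past the threshold, and HIST1H2BH, at 2.31 and 1.88 FPKM with sh-NC and 0.757 and 0.930 FPKM with sh-LDB1, is the 1 scarce gene counted as falling. The other 19 cluster genes were not tested, and none of them had more than 18 recovered reads in a library.

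**Figure D1:**
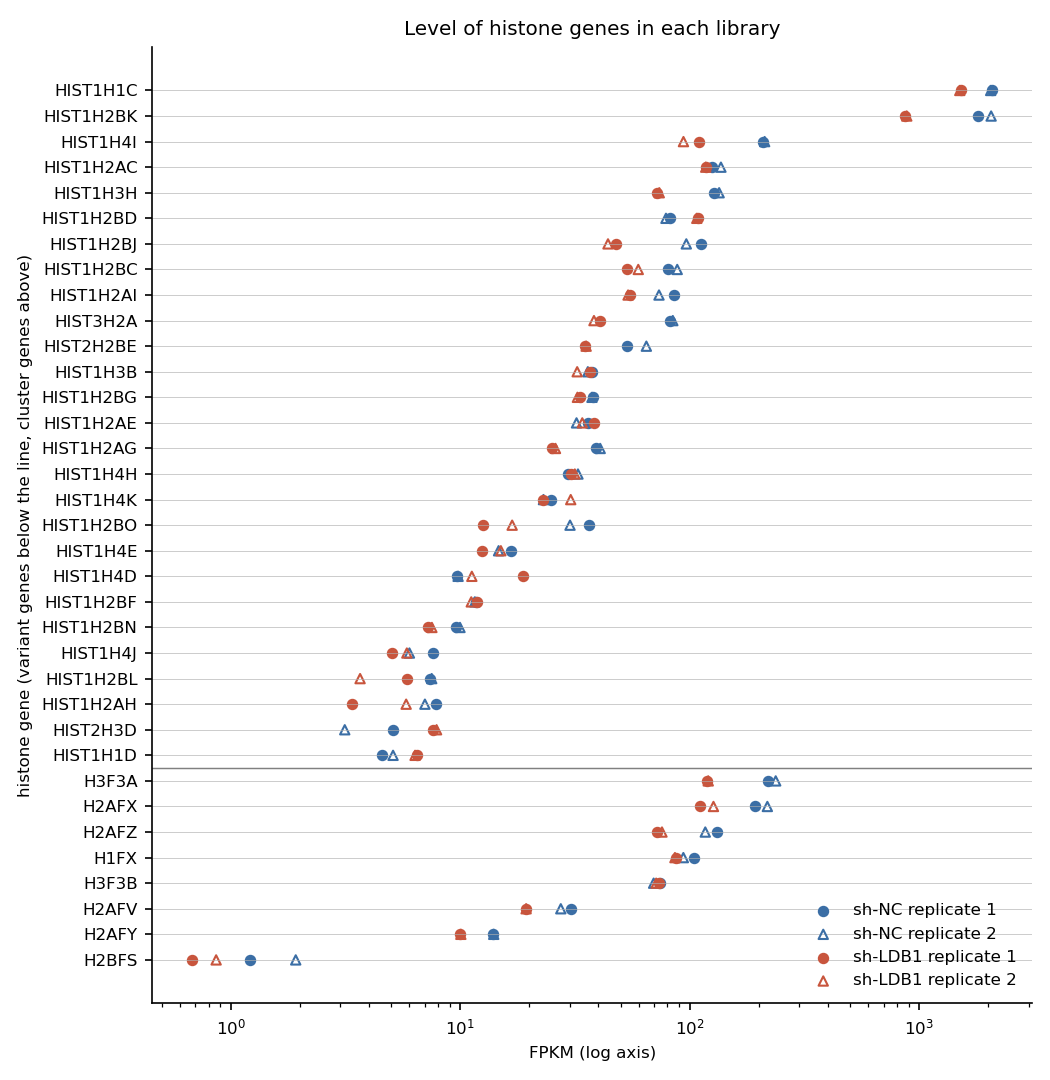
FPKM of the 27 cluster genes whose mean reached 5 FPKM and of the 8 variant genes tested, 1 point per library on a log axis (blue, sh-NC; red, sh-LDB1; filled circles, replicate 1; open triangles, replicate 2). HIST1H1C and HIST1H2BK stand apart at the top, and the red points of HIST1H2BD lie above its blue points.

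H1 genes encode the linker histones, and 6 cluster members of the family were listed. HIST1H1C (linker histone H1.2, chr6:26055740-26056470, minus strand) was the most abundant cluster gene, at 2079 and 2051 FPKM with sh-NC and 1521 and 1504 FPKM with sh-LDB1. Both knockdown libraries were below both controls, by a log2 fold change of -0.45 (standard error 0.0496, limma adjusted p = 0.00164). Without sh-LDB1 replicate 2 the adjusted p was 0.0526. A pair of scarcer linker genes rose. HIST1H1D was at 4.55 and 5.09 FPKM with sh-NC and 6.47 and 6.35 FPKM with sh-LDB1 (log2 fold change 0.35, limma adjusted p = 0.0122). HIST1H1E was at 3.69 and 3.60 FPKM with sh-NC and 5.22 and 4.996 FPKM with sh-LDB1 (0.40, adjusted p = 0.0057). Without sh-LDB1 replicate 1 neither rise passed, at limma adjusted p = 0.0765 and 0.0503 in that order, and without sh-LDB1 replicate 2 HIST1H1D did not pass either (0.0673). HIST1H1B was at 2.18 and 1.89 against 0.458 and 1.65 FPKM and was not called (-0.62, adjusted p = 0.143), although its groups did not overlap. Without sh-LDB1 replicate 2 it was past the threshold, at -1.06. The median of the 4 H1 genes tested was -0.049, and it turned to 0.11 with equal summed FPKM.

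H2A pairs with H2B in the nucleosome core. Of the 10 H2A cluster genes tested, 3 fell and 0 rose, a share of falls (30%) below that of all genes (37.4%). HIST3H2A, which lies apart from the main cluster on chr1:228434777-228457873 (minus strand), was at 82.2 and 84.4 FPKM with sh-NC and 40.6 and 38.2 FPKM with sh-LDB1. It kept 47.3% of the control level, a log2 fold change of -1.06 (standard error 0.0483, limma adjusted p = 1.64e-04). HIST1H2AI was at 85.1 and 73.5 FPKM with sh-NC and 55.1 and 53.9 FPKM with sh-LDB1 (-0.53, adjusted p = 0.0045), and 58.8% of its 100-base words are shared with HIST1H2AJ, so reads of this pair cannot be fully told apart. HIST1H2AG was at 39.1 and 40.7 FPKM with sh-NC and 25.1 and 26.0 FPKM with sh-LDB1 (-0.62, adjusted p = 5.25e-04). The remaining abundant H2A genes did not pass the test. HIST1H2AC was at 125.6 and 136.8 FPKM with sh-NC and 118.2 and 117.4 FPKM with sh-LDB1 (-0.15, adjusted p = 0.0654), a difference that turned to 0.019 with equal summed FPKM. HIST1H2AE overlapped between groups, at 36.2 and 32.1 against 38.4 and 34.0 FPKM. HIST1H2AH was at 7.82 and 7.01 against 3.39 and 5.81 FPKM (-0.62, adjusted p = 0.0651), on 21 to 49 recovered reads per library, and passed without sh-LDB1 replicate 2 (-0.94, adjusted p = 0.00929).

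H2B held the largest falls of the cluster genes. Of 18 H2B genes tested, 8 fell and 5 rose (44.4% and 27.8%, against 37.4% and 29.9% of all genes). Among the 8 is HIST1H2BH, which passed the filter through sh-NC alone and is a description only. The rises numbered 3 or 4 with any 1 library left out, and the median was below 0 under all 3 scalings tried. HIST1H2BK (chr6:27146361-27146855, minus strand), a gene that also makes polyadenylated transcripts, was at 1813 and 2061 FPKM with sh-NC and 866 and 884 FPKM with sh-LDB1. Every knockdown value was less than every control value, and the mean went from 1937 ± 175 to 875 ± 12.7 FPKM (SD, n = 2). This was a log2 fold change of -1.14 (standard error 0.0782, limma adjusted p = 4.17e-04), or -0.97 with equal summed FPKM, and it rested on 5094 to 11577 recovered reads per library. Of its 100-base words, 22.5% are shared with other genes. Its neighbour HIST1H2BJ (chr6:27125897-27132795, minus strand) was at 112.4 and 96.6 FPKM with sh-NC and 47.6 and 44.03 FPKM with sh-LDB1. That left 43.8% of the control level (-1.17, standard error 0.0893, adjusted p = 5.55e-04, and -0.9997 with equal summed FPKM). HIST1H2BO was at 36.3 and 30.1 FPKM with sh-NC and 12.6 and 16.8 FPKM with sh-LDB1 (-1.13, adjusted p = 0.00386). The change was under 2-fold without sh-NC replicate 1 (-0.9964) and without sh-LDB1 replicate 1 (-0.93).

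Other H2B genes moved in both directions. HIST2H2BE was at 53.1 and 64.7 FPKM with sh-NC and 34.8 and 35.4 FPKM with sh-LDB1 (limma log2 fold change -0.73, adjusted p = 0.00348). HIST1H2BC was at 80.5 and 88.2 FPKM with sh-NC and 53.1 and 59.7 FPKM with sh-LDB1 (-0.57, adjusted p = 0.00343), but its annotated gene overlaps HIST1H1T, HIST1H4C and HFE. HIST1H2BD (chr6:26158122-26171349, plus strand), by contrast, was at 82.0 and 78.8 FPKM with sh-NC and 108.9 and 107.4 FPKM with sh-LDB1. It was the only cluster gene above 10 FPKM that rose (0.42, standard error 0.042, adjusted p = 0.0012), and both knockdown values were above both controls. Its annotated span overlaps 4 other genes. HIST1H2BN was at 9.53 and 9.97 against 7.24 and 7.52 FPKM (-0.36, adjusted p = 0.00474). HIST1H2BG was at 37.8 and 37.5 against 33.3 and 32.4 FPKM (-0.19, adjusted p = 0.0135), and it did not pass without sh-LDB1 replicate 1 (adjusted p = 0.0635) or replicate 2 (0.097). HIST1H2BF showed no separation, at 11.7 and 11.6 against 11.8 and 11.2 FPKM. HIST1H2BL was at 7.34 and 7.504 against 5.88 and 3.66 FPKM (-0.57, adjusted p = 0.0571), and passed without sh-LDB1 replicate 1 (-0.86, adjusted p = 0.00743). HIST2H2BC and HIST2H2BD, annotated as pseudogenes, were called higher (0.28 and 0.42), but HIST2H2BC did not pass with any 1 library left out and HIST2H2BD passed only without sh-NC replicate 2. HIST1H2BE, at the lower end of the levels, rose past the threshold from 2.01 and 2.78 to 5.63 and 7.01 FPKM (1.11, adjusted p = 0.0036). It was under 2-fold without sh-NC replicate 1 (0.95) and without sh-LDB1 replicate 2 (0.97). Its annotated span overlaps 3 other genes, and 25.6% of its 100-base words are shared with other genes.

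Of the 6 H3 cluster genes tested, 1 fell and 4 rose (16.7% and 66.7%, against 37.4% and 29.9% of all genes). Fewer of them rose with any 1 library left out. HIST1H3H (chr6:27810051-27811300, plus strand), the most abundant of them, was at 127.5 and 134.4 FPKM with sh-NC and 72.0 and 73.7 FPKM with sh-LDB1, a log2 fold change of -0.84 (standard error 0.0459, limma adjusted p = 2.39e-04). HIST1H3B overlapped between groups, at 37.6 and 36.0 against 36.6 and 32.3 FPKM. HIST2H3D was at 5.11 and 3.13 against 7.59 and 7.88 FPKM (0.80, adjusted p = 0.022). This rise rested on 19 to 50 recovered reads per library, and it did not pass without sh-LDB1 replicate 1 (adjusted p = 0.0855) or replicate 2 (0.0976). HIST1H3E was at 1.29 and 1.49 against 2.03 and 2.12 FPKM (0.36, adjusted p = 0.039) and did not pass with any 1 library left out (adjusted p 0.0578 to 0.141). HIST3H3, which encodes a testis H3 and lies on chr1:228424845-228425360 (minus strand), passed the filter through sh-LDB1 alone. It was at 0.129 and 0.846 FPKM with sh-NC and 4.80 and 5.08 FPKM with sh-LDB1, or 1 and 6 recovered reads against 37 and 37. The difference was 2.04 on the log2(FPKM + 1) scale and lay between 1.69 and 3.85 over the fits tried. The annotated span of HIST3H3 overlaps 1 other gene, from which unstranded reads cannot be separated.

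H4 closes the core particle with H3. Of 8 H4 genes tested, 1 fell and 1 rose (12.5% each, against 37.4% and 29.9% of all genes), and with 1 library left out these counts were 1 or 2. HIST1H4I (chr6:27139282-27139678, plus strand) was at 208.4 and 212.2 FPKM with sh-NC and 109.5 and 93.9 FPKM with sh-LDB1, which left 48.4% (-1.04, standard error 0.0831, limma adjusted p = 6.25e-04). The fall was under 2-fold without sh-LDB1 replicate 2 (-0.93) and with equal summed FPKM (-0.87). HIST1H4H was level, at 29.6 and 32.6 against 30.4 and 31.6 FPKM. HIST1H4E overlapped between groups, at 16.7 and 14.7 against 12.5 and 15.02 FPKM. HIST1H4D was at 9.70 and 9.78 against 18.8 and 11.2 FPKM (0.53, adjusted p = 0.11), where the knockdown libraries differed widely from each other, and passed without sh-LDB1 replicate 2 (0.88, adjusted p = 0.00545). HIST1H4K was at 24.8 and 23.0 against 23.0 and 30.3 FPKM and HIST1H4J at 7.62 and 5.999 against 5.02 and 5.85 FPKM, and 90.7% of the 100-base words of HIST1H4J and 91.3% of those of HIST1H4K are shared between them, so their reads may be split. HIST1H4B rose from 1.41 and 2.63 to 5.27 and 5.88 FPKM (1.15, adjusted p = 0.0088), was under 2-fold without sh-NC replicate 1 (0.86), and did not pass without sh-LDB1 replicate 2 (adjusted p = 0.0549).

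**Figure D2:**
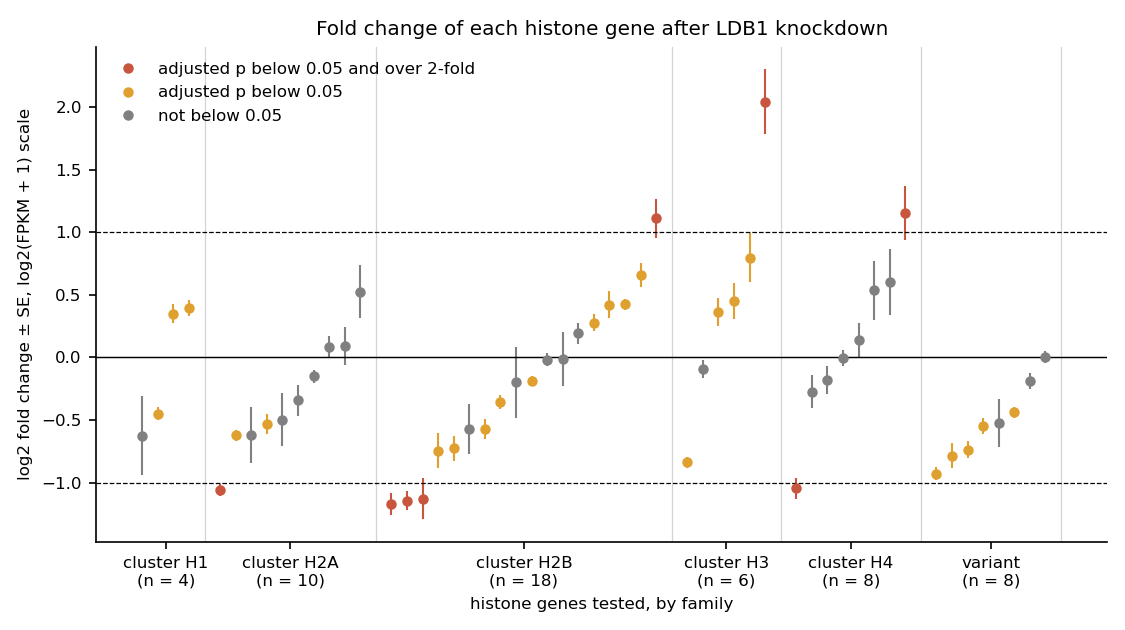
Log2 fold change of sh-LDB1 against sh-NC with its standard error (limma, log2(FPKM + 1) scale) for the 46 cluster and 8 variant genes tested, ordered within each family. Red points are past the threshold, yellow points have an adjusted p below 0.05, grey points do not, and dashed lines mark 2-fold. No variant gene lies clearly above 0. Of the 46 cluster genes, 12 rose (26.1%, against 29.9% of all genes tested).

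Variant histone genes were lower or level. Of the 13 rows, 8 were tested, 5 fell and 0 rose (5 and 1 with equal summed FPKM), and 0 were past the threshold. Over all genes tested, 37.4% fell and 29.9% rose, and past the threshold these shares were 10.3% and 9.5%. At 5 FPKM or more, the level of 7 of the 8, 46.4% fell and 32.3% rose. The median log2 fold change of the 8 variant genes was -0.54, against -0.078 for all genes tested. It stayed below 0 under each scaling (-0.41 and -0.46). These 8 include H2BFS, which passed the filter through sh-NC alone. With a filter of 5 FPKM, which leaves 7 variant genes without H2BFS, the median was -0.55, against -0.15 for all genes at that level. H3F3A and H3F3B encode the same replacement histone, called H3.3, which is deposited outside replication. H3F3A was at 219.5 and 237.1 FPKM with sh-NC and 118.5 and 120.5 FPKM with sh-LDB1, the largest fall among the variants (-0.93, standard error 0.053, limma adjusted p = 2.65e-04). H3F3B was at 74.5 and 69.6 against 73.1 and 71.4 FPKM, so its groups overlapped (0.0042, standard error 0.0505, adjusted p = 0.947). H3F3B rose by 0.17 with equal summed FPKM. Both control libraries had more H3F3A per H3F3B (ratios 2.95 and 3.41) than both knockdown libraries (1.62 and 1.69). Of the 100-base words of H3F3A, 15.6% are shared with other genes, its pseudogenes among them.

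The 4 H2A variants tested all fell, as did 37.4% of all genes tested. H2AFX encodes H2A.X, the histone phosphorylated around DNA breaks. It was at 192.4 and 218.0 FPKM with sh-NC and 110.7 and 126.9 FPKM with sh-LDB1 (-0.78, limma adjusted p = 0.00233). H2AFZ and H2AFV encode closely related forms of H2A.Z, which sits beside gene starts. H2AFZ was at 131.2 and 116.9 against 72.3 and 75.7 FPKM (-0.74, adjusted p = 0.00105), and H2AFV at 30.2 and 27.4 against 19.4 and 19.4 FPKM (-0.55, adjusted p = 0.0017). H2AFY, which encodes the macroH2A protein found in silent chromatin, was at 13.9 and 13.98 against 9.98 and 10.1 FPKM (-0.44, adjusted p = 0.00141). All 4 had both knockdown libraries below both controls, as did 46.3% of all genes tested. H1FX, a linker variant, was at 104.2 and 93.8 against 87.2 and 86.2 FPKM (-0.19, adjusted p = 0.0525), and overlaps an antisense gene that unstranded reads cannot be separated from. H2BFS stood on 2 rows, 1 of which is annotated as an artifact, and the tested row was at 1.21 and 1.92 against 0.678 and 0.862 FPKM (-0.52, adjusted p = 0.0672). That row shares 98.1% of its 100-base words with other genes, HIST1H2BK among them. Its mean was 1.56 FPKM with sh-NC and 0.770 FPKM with sh-LDB1. It thus passed the filter through sh-NC alone, and its values are a description only. The 5 untested variant rows, H1F0 among them, had at most 0.403 FPKM in any library.

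The summed level was lower with sh-LDB1 in both classes. The 65 cluster genes summed to 5215 and 5435 FPKM with sh-NC and 3366 and 3357 FPKM with sh-LDB1, a ratio of group means of 0.631. The 13 variant rows summed to 768 and 779 FPKM with sh-NC and 492 and 511 FPKM with sh-LDB1, a ratio of 0.649. With equal summed FPKM these ratios were 0.712 and 0.732. Cluster over variant was 6.79, 6.98, 6.84 and 6.57 in the 4 libraries, in the order sh-NC 1 and 2 and sh-LDB1 1 and 2, so the groups overlapped. HIST1H1C and HIST1H2BK made up 74.6% and 75.7% of the cluster sum with sh-NC, against 70.9% and 71.1% with sh-LDB1. Without both, the cluster ratio was 0.736. By family the ratio was 0.511 for cluster H2B, 0.674 for H4, 0.716 for H3, 0.735 for H1 and 0.744 for H2A. These sums have no test, and levels between genes rest on the lengths the authors used. The length fitted from the FPKM was 381 bases for HIST1H2BK, whose annotated span is 495, and 2250 for HIST1H2AG, whose span is 493.

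**Figure D3:**
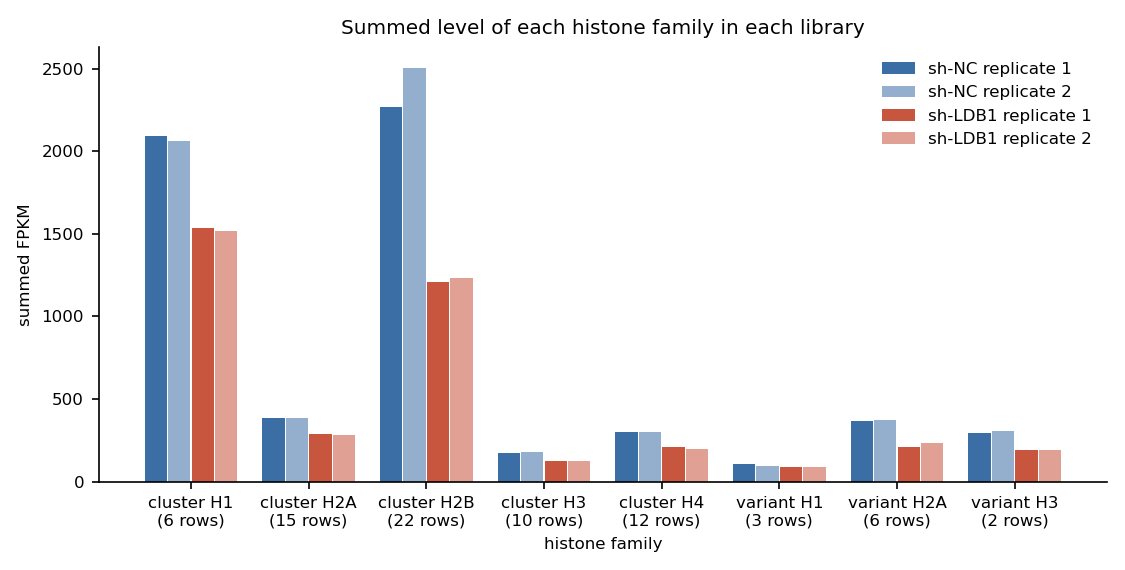
Summed FPKM of each histone family in each library (bars from 0; blue, sh-NC; red, sh-LDB1; the paler bar of each colour is replicate 2). Cluster H1 and H2B hold most of the signal, and in each family both red bars are lower than both blue bars.

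Values differed along chromosome 6, a pattern noticed after they were seen. The 45 annotated cluster genes there fall into stretches parted by gaps of over 200 kb. The first main stretch (chr6:26017032-26285638) held 25 genes, the second (chr6:27125897-27147562) 5 and the third (chr6:27807479-27893891) 14. In the first, 4 of the 18 genes tested fell and 6 rose, with a median log2 fold change of 0.039. HIST1H2BH, counted among these falls, passed the filter through sh-NC alone. In the second, 4 of 5 fell and 0 rose, 3 of them past the threshold, with a median of -1.04. In the third, 4 of 10 fell and 1 rose, with a median of -0.44. The shares of falls in the first and in the third (22.2% and 40%) were below and near that of all genes (37.4%). With 1 library left out, the first stretch had 2 to 5 falls (2 without sh-LDB1 replicate 2) and 3 to 5 rises (3 without sh-LDB1 replicate 1), and the third had 0 to 2 rises. Among genes of at least 5 FPKM, 3 of 11 fell in the first stretch, 4 of 5 in the second and 4 of 7 in the third. Without sh-LDB1 replicate 2 the first of these counts was 1. No test was made of the position.

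**Figure D4:**
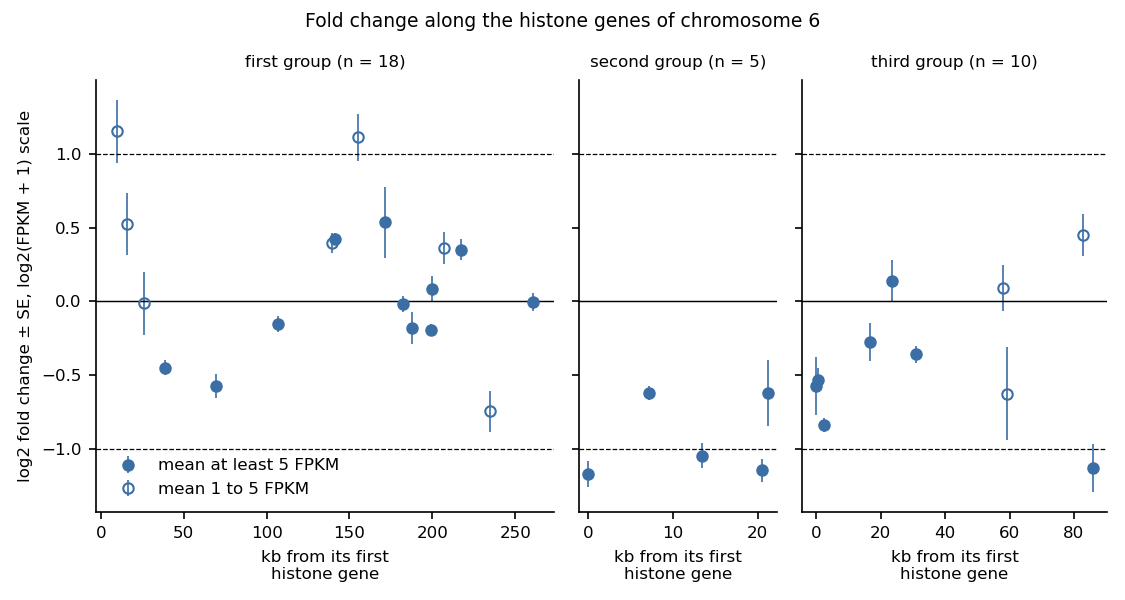
Log2 fold change with its standard error (limma, log2(FPKM + 1) scale) of the cluster genes tested on chromosome 6, against the distance in kb from the first histone gene of each stretch. Filled points have a mean of at least 5 FPKM, open points 1 to 5, and dashed lines mark 2-fold. The 5 points of the second stretch all lie below -0.62.

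Many cluster genes lie head to head and share the DNA between their starts. There were 11 such pairs, with 219 to 319 bases between the annotated starts. In 7 pairs both genes were tested, 4 with the same sign and 3 with opposite signs. Some of these signs rest on values near 0. HIST1H2AE, paired with HIST1H2BG, was at 0.082 and ranged from -0.0027 to 0.17 with 1 library left out. HIST1H2AC, paired with HIST1H2BC, turned from -0.15 to 0.019 with equal summed FPKM. HIST1H2BJ and HIST1H2AG, 248 bases apart, both fell (-1.17 and -0.62). HIST1H2BK and HIST1H2AH, 251 bases apart, differed in level, with means of 1406 and 6.01 FPKM over the 4 libraries. HIST3H2A and HIST3H2BB, 230 bases apart, moved in opposite directions: HIST3H2BB rose from 1.41 and 1.61 to 2.93 and 2.96 FPKM (0.65, limma adjusted p = 0.004). HIST1H2BO fell while HIST1H3J, whose annotated start is 319 bases away, went from 1.91 and 1.84 to 2.50 and 3.41 FPKM (0.45, limma adjusted p = 0.0436). This rise did not pass without sh-NC replicate 1, sh-NC replicate 2 or sh-LDB1 replicate 2. The pair rests on the annotated HIST1H3J span of 2792 bases, and is 1 of the 3 with opposite signs. That span overlaps HIST1H2AM, itself 240 bases from HIST1H2BO, and 32.5% of the 100-base words of HIST1H3J are shared with HIST1H2AM.

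Genes were also grouped by the annotated end of the transcript. Of the 29 tested genes annotated to end at the stem-loop, 8 fell and 8 rose, with a median log2 fold change of -0.017. The rises numbered 5 without sh-NC replicate 1, 4 without sh-LDB1 replicate 1 and 3 without sh-LDB1 replicate 2. Of the 14 tested genes annotated past it, 6 fell and 4 rose, with a median of -0.078. The share of falls was 27.6% in the first group and 42.9% in the second, against 37.4% of all genes. Both medians were above 0 with equal summed FPKM (0.079 and 0.092). The length fitted from the FPKM was 1294 bases for HIST1H4I, 2250 for HIST1H2AG and 2060 for HIST1H2BH, whose annotated spans are 397, 493 and 462. These genes are among the falls of the first group, but were counted over longer models than the annotation gives. HIST1H2BH passed the filter through sh-NC alone, and HIST3H3, among the rises of that group, through sh-LDB1 alone. The 6 genes listed as also polyadenylated (HIST1H1C, HIST1H2AC, HIST1H2BC, HIST1H2BD, HIST1H2BK and HIST2H2BE) had means of 47.0 to 1789 FPKM, 4 of them fell and 1 rose. Among the tested H2B genes with a promoter sequence, 7 of 11 with the octamer fell, HIST1H2BH among them, and 1 rose. Of the 4 without it, 1 fell and 2 rose. Among H2A genes the order was the reverse: 1 of 5 with the octamer fell and 2 of 2 without it fell. By comparison, 37.4% of all genes tested fell and 29.9% rose.

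Genes that make, process and handle histones moved as well. SLBP, the protein that binds the stem-loop, was at 109.0 and 114.5 FPKM with sh-NC and 54.2 and 56.9 FPKM with sh-LDB1 (-0.995, standard error 0.0495, limma adjusted p = 1.95e-04). NPAT, the coactivator of cluster gene transcription, was at 5.04 and 5.36 against 4.51 and 4.87 FPKM (-0.13, adjusted p = 0.179), and CASP8AP2, its partner, at 5.85 and 6.88 against 4.35 and 4.04 FPKM (-0.50, adjusted p = 0.0088). Of the 27 genes of histone transcription and 3′ end formation, 20 fell and 3 rose, 5 of them falling past the threshold, with a median of -0.55. These falls are 74.1% of the list by adjusted p and 18.5% past the threshold, against 37.4% and 10.3% of all genes. With equal summed FPKM, 11.1% fell past the threshold, against 7.46% of all genes. The largest were CCNE1 (cyclin E1, -1.55) and SNRPF (a core snRNP protein, -1.31). The 3 that rose, named after their values were seen, were GON4L (0.44), TUT7 (0.32) and CRAMP1 (0.29).

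Of 29 histone chaperone genes, 27 were tested, 21 fell (77.8%) and 1 rose, with a median log2 fold change of -0.74. Falls were 37.4% of all genes tested, and 46.4% at 5 FPKM or more, the level of 26 of the 27. Past the threshold, 11 fell (40.7%) and 1 rose (3.7%), against 10.3% and 9.5% of all. At 5 FPKM or more the last shares were 13.1% and 9.45%. CHAF1A and CHAF1B, the large and middle subunits of CAF-1, which loads new H3 and H4 behind the replication fork, fell most. CHAF1A was at 39.9 and 38.03 FPKM with sh-NC and 9.02 and 8.39 FPKM with sh-LDB1 (-2.04, limma adjusted p = 8.31e-05), and CHAF1B at 12.0 and 11.6 against 1.68 and 1.37 FPKM (-2.34, adjusted p = 1.17e-04). NASP, which holds soluble H3 and H4, was at 42.3 and 39.8 against 12.8 and 12.7 FPKM (-1.61, adjusted p = 9.69e-05). MCM2, a helicase subunit that also binds H3 and H4, was at 40.7 and 41.8 against 10.3 and 11.8 FPKM (-1.81). HJURP, the chaperone of the centromeric H3 form CENPA, was at 34.5 and 33.0 against 12.1 and 11.4 FPKM, and CENPA itself at 21.8 and 22.0 against 10.7 and 9.93 FPKM (-1.02, adjusted p = 2.23e-04). Of the chaperones that handle H3.3, HIRA was at 15.4 and 15.9 against 12.7 and 11.5 FPKM (-0.35, adjusted p = 0.00886), ATRX at 2.02 and 2.00 against 1.38 and 1.32 FPKM (-0.36, adjusted p = 0.0342), and DAXX at 39.1 and 40.3 against 37.7 and 38.9 FPKM (-0.051, adjusted p = 0.354). SPTY2D1, the 1 chaperone gene that rose, was at 3.85 and 4.65 against 13.4 and 13.2 FPKM (1.45). ASF1A was at 23.6 and 26.8 against 14.01 and 15.46 FPKM (-0.74) and ASF1B at 32.2 and 32.1 against 27.3 and 29.5 FPKM (-0.17).

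All 25 S phase genes fell, 19 of them past the threshold (76%), with a median log2 fold change of -1.26. Over all genes tested, 37.4% fell and 10.3% fell past the threshold. At 5 FPKM or more, the level of all 25, these shares were 46.4% and 13.1%. PCNA, the sliding clamp of the replication fork, was at 236.7 and 256.9 FPKM with sh-NC and 110.4 and 117.9 FPKM with sh-LDB1 (-1.11, limma adjusted p = 2.60e-04). RRM2, a subunit of ribonucleotide reductase, was at 29.97 and 32.8 against 18.1 and 17.1 FPKM (-0.80), and RFC3, a subunit of the clamp loader, was at 21.8 and 23.0 against 3.67 and 3.70 FPKM (-2.32). The summed level of the list was 1726 and 1765 FPKM with sh-NC and 728.7 and 739.6 FPKM with sh-LDB1. The S phase genes thus moved with the summed histone level, and their part in it was not tested.

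**Figure D5:**
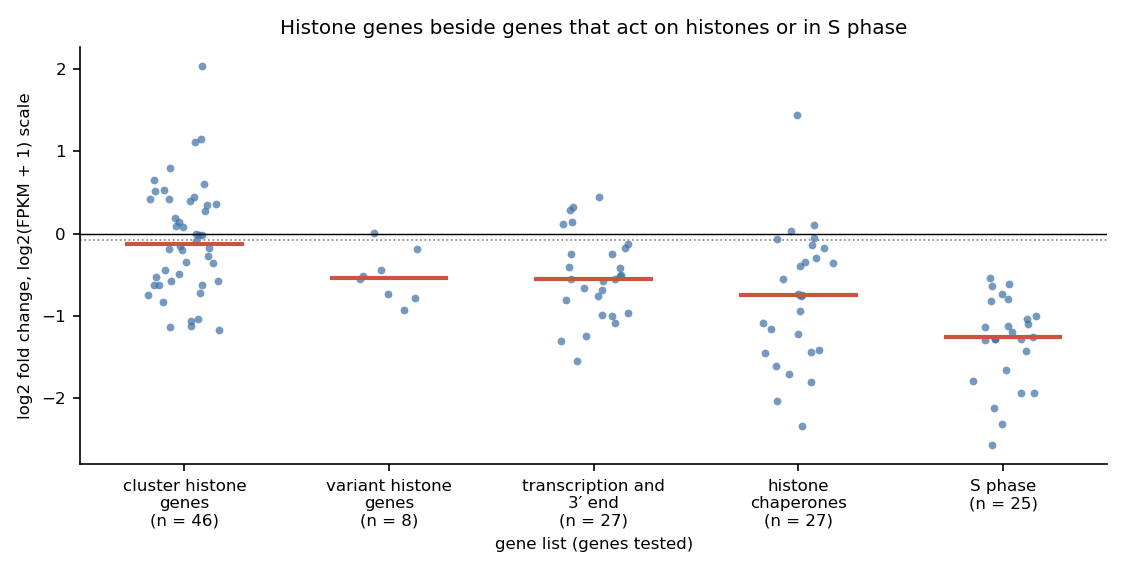
Log2 fold change (limma, log2(FPKM + 1) scale) of each tested gene in the cluster histone, variant histone, transcription and 3′ end, chaperone and S phase lists. Each point is a gene, red bars are medians and the dotted line is the median of all genes tested. Every S phase point lies below 0, and the cluster histone points spread from -1.17 to 2.04.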

How the data were processed

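Total RNA was extracted by the authors, and the labels name the TruSeq RNA kit, which selects polyadenylated RNA, for the 4 libraries. Reads were aligned with HISAT2 2.0.5 to hg38 (per the submitters' processing notes). The gene counter and annotation are not given in the sources used here. The deposited table holds FPKM per gene made by the authors from read counts. Reads were recovered from the steps between FPKM values, and 99.89% of genes gave whole reads (tolerance 0.003). Differences were tested with limma 3.58.1 (R 4.3.3) on log2(FPKM + 1), with the trend option, for genes whose mean reached 1 FPKM, with Benjamini-Hochberg adjustment. This was tested on simulated data. Histone genes and lists were chosen with earlier results of these data known. Values are given for each tested variant gene and each cluster gene with a mean of at least 5 FPKM, and scarcer genes were named after their values were seen. Sequences were searched with Python 3.11.15 in GENCODE 44 genes on GRCh38. Alternatives covered scaling, pseudocount, filter, tool, replicate block and left-out libraries. One gene that the naming rule selects is not reported here.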

Additional observations from a re-analysis of the deposited data

Results flagged for a closer look

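HIST1H2APS3, an H2A pseudogene row left out by name (chr6:26233122-26233255, plus strand, 134 bases), showed signal outside the main measurement. It was at 9.22 and 7.59 FPKM with sh-NC and 20.5 and 20.7 FPKM with sh-LDB1, on 20 and 15 against 44 and 42 recovered reads. Its log2 fold change was 1.205 (standard error 0.0957, limma with Benjamini-Hochberg adjustment, adjusted p = 6.21e-04). It lies within 2 other annotated genes, and their part in its reads was not tested.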

How the results depend on the processing

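With equal summed FPKM, 0 cluster genes and 3 of the transcription and 3′ end genes fell past the threshold, the cluster and variant medians were 0.047 and -0.41, and the ratios of summed FPKM were 0.712 and 0.732. The sign turned for DAXX (0.12), HIST1H2AC (0.019), HIST1H2BF (0.14), HIST1H3B (0.075), HIST1H4H (0.16) and NPAT (0.018). With median-of-ratios scaling the counts were 3 and 3, the medians -0.024 and -0.46 and the ratios 0.677 and 0.696, and the sign turned for DAXX (0.047), HIST1H2BF (0.075), HIST1H3B (0.0040) and HIST1H4H (0.094). Without a filter the medians were 0.0018 and -0.34. With a filter of 5 FPKM, 0 cluster genes and 710 of all genes rose past the threshold, and the cluster median was -0.36. With pseudocounts of 0.1 and 0.01, 8 and 8 transcription and 3′ end genes fell past the threshold, and the variant median was -0.66 and -0.66. With voom on recovered reads these were 8 and -0.66. With no fold threshold, 14 cluster genes fell and 12 rose, 5 variant genes fell, 4978 of all genes fell and 3983 rose, 20 transcription and 3′ end genes fell and 3 rose, and 21 chaperone genes fell. With limma's treat test against 2-fold, 0 cluster genes fell and 0 rose, 581 of all genes fell and 568 rose, and 11 S phase, 3 transcription and 3′ end and 7 chaperone genes fell. The cause of these changes was not tested, apart from the lower number of genes that a filter leaves.

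With 1 library left out, 1 to 3 cluster genes rose past the threshold (1 without sh-LDB1 replicate 2), and the cluster ratio was 0.619 to 0.645. Log2 fold changes near 0 crossed it: H3F3B from -0.044 to 0.053, HIST1H2AE from -0.0027 to 0.17, HIST1H2BF from -0.054 to 0.020, HIST1H4H from -0.070 to 0.064 and HIST1H4K from -0.052 to 0.33. Leaving out 1 sample leaves an arm of 1, which is assumed to vary like the other group. The cluster ratio was 0.736 without HIST1H1C and HIST1H2BK, and the stem-loop was in 1 variant gene when whole genes were searched. The choices of other members, and the scaling of the sums, were made after seeing the data. Leaving out pseudogenes or shared sequences kept the counts of calls within 1.5 times. Same-numbered libraries had a correlation of deviations of 0.0196 and are not paired by the labels. With the replicate number as a block, 5 cluster genes fell and 3 rose past the threshold. Of all genes, 1386 fell and 1274 rose past it, and no other count in the text moved by over 1.5 times. With 2 libraries a group, differences in genes with few reads, such as HIST3H3 (1 and 6 against 37 and 37), are the least precise.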

Other observations

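Of the rows left out by name, H3F3AP4, a pseudogene of H3F3A, was at 264.5 and 325.2 FPKM with sh-NC and 135.0 and 141.2 FPKM with sh-LDB1 (log2 fold change -1.08, limma adjusted p = 0.00124). Its level was 1.21 and 1.37 times that of H3F3A in sh-NC and 1.14 and 1.17 times in sh-LDB1. All of its 100-base words (100%) are shared with H3F3A or other copies, so reads of that length cannot be assigned to it alone. H3F3AP6 was at 26.8 and 30.7 against 11.7 and 14.47 FPKM. HIST1H4PS1 was at 9.09 and 6.65 against 6.60 and 2.74 FPKM (-0.72, limma adjusted p = 0.152). H1FX-AS1, the antisense RNA, was at 0.325 and 0.595 against 0.219 and 0.232 FPKM and was not tested.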
